A study of Mus musculus with 2 samples.

Results

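The genes described here are those of the BCL2 family, the caspases and the apoptosis regulators that act with them. They are 44 of the 32813 gene symbols in the deposited table, picked by a rule on symbols. The rule was set with earlier results of these data known. It takes every symbol starting with Bcl2, every caspase named by a number, and 21 named partners of these proteins. Among the partners are Bax, Apaf1, Xiap, Cflar and Trp53. The 1 group analysed is type 5 bipolar cells, a cone bipolar class of the mouse retina, taken by fluorescence-activated sorting of dissociated Htr3a-GFP retinas, in which green fluorescent protein reports the Htr3a promoter. Its 2 total RNA libraries are biological replicates by the design text. The sources used here do not give the animals' age and sex, or whether a library pooled several animals. No other cell population, treatment or genotype is analysed here, so each value is a level in the sorted cells and not a difference from another cell type. Levels are in TPM, a share of the transcripts of a library that is corrected for gene length. TPM values allow genes to be set beside each other, but keep no read depth.

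Apoptosis runs along an intrinsic route through mitochondria and an extrinsic route through death receptors. In the intrinsic route, BH3-only proteins switch on Bax and Bak, which open the outer mitochondrial membrane unless anti-apoptotic relatives such as Bcl-xL and Mcl-1 hold them. Released cytochrome c joins Apaf1 to activate caspase 9, and caspase 9 cleaves further caspases, which XIAP can block until Diablo displaces it. In the retina this machinery removes surplus neurons during development, and mice without Bax keep additional cells in the inner nuclear layer, where bipolar cells lie.

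The sorted cells carried their defining genes. The type 5 genes Kcng4, Cdh9 and Htr3a lay at 88.8 to 326 TPM in the libraries, and all 5 pan-bipolar and 6 ON bipolar genes checked were called above 10 TPM. Genes of other retinal cells were present as well: 7 of 8 rod genes were called above 1 TPM, with summed levels of 1600 TPM in replicate 1 and 1650 TPM in replicate 2, and no rod marker was listed at 0. Muller glia genes summed to 177 and 371 TPM with 5 of 7 above 1 TPM, amacrine genes to 60.2 and 85.3 TPM with 2 of 6 above, and red blood cell genes to 75.1 and 55.2 TPM with 3 of 5 above. Endothelial genes summed to 4.43 and 2.47 TPM with 0 of 5 called above 1 TPM. RNA of these cells could carry any broadly expressed apoptosis gene, and its part in the levels below was not tested. In such bulk samples a smaller share of a cell type and less RNA per cell cannot be told apart.

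Of the 44 genes, 7 were listed at 0 in both libraries and 6 in a single library. A listed 0 is given as such, without a mean or a fold, since the depth behind it is unknown. Expression above 1 TPM was called for 19 of the 37 genes above 0 in either library, which is 51.4%, against 55.5% of all 19968 genes tested (limma on log2(TPM + 1), one-sided, Benjamini-Hochberg adjusted p under 0.05). Above 10 TPM the count was 10 of 37, or 27.0%, against 32.4% of all genes. Both shares are close to those of all genes, so the count of called members is not in itself a property of the apoptosis genes. What the data show is which members of each role were present. Without a test, 24 of the 44 stood at or over 1 TPM in each library (54.5%), against 41.1% of all 32813 symbols, and 15 stood at or over 10 TPM (34.1%), against 25.1%. All 44 are protein-coding genes, while the symbols of the table include pseudogenes and antisense genes. The 24 include all 19 called genes, and also Casp8, Casp6, Bak1 and Fadd, which were not called. For a gene without a call, a level under 1 TPM was not shown.

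**Figure D1:**
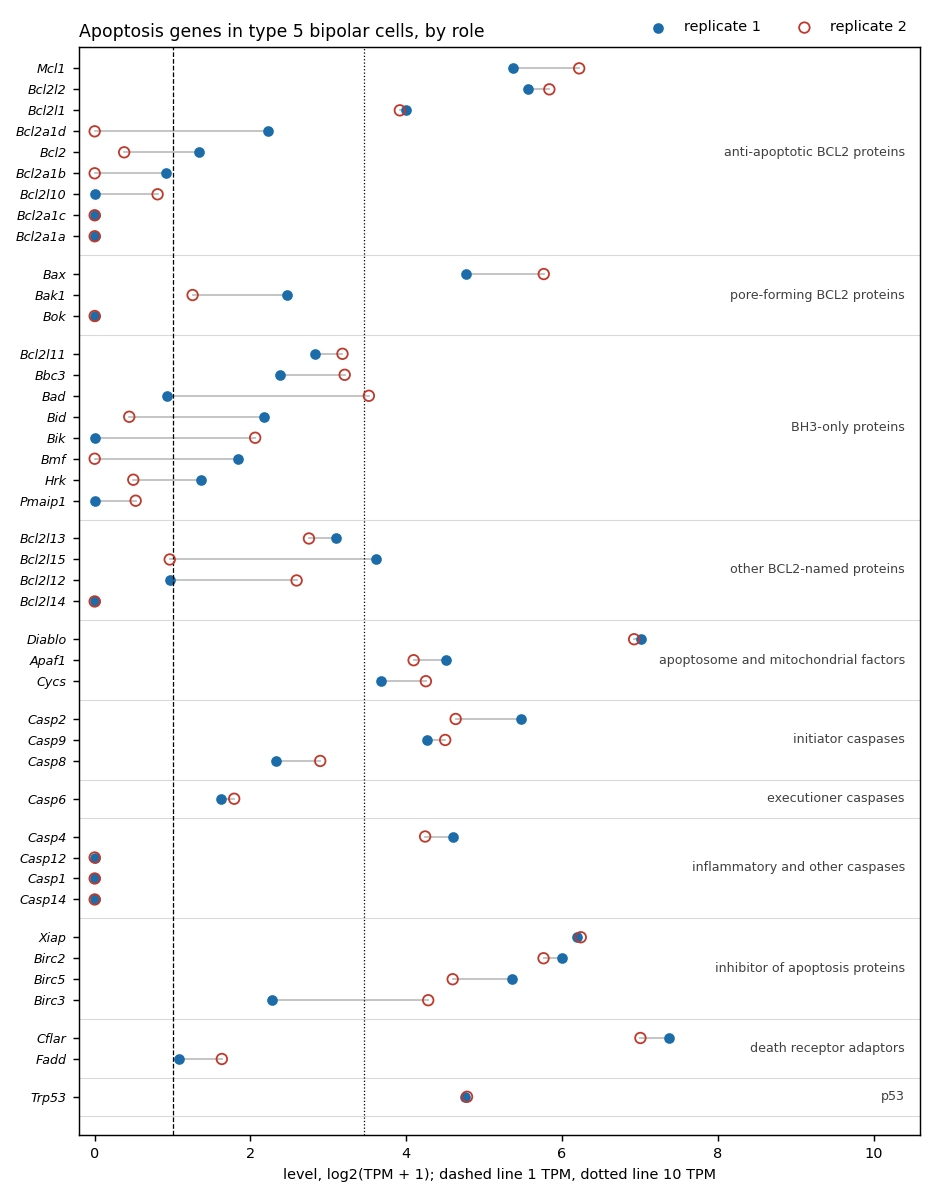
Levels of 42 apoptosis genes on the log2(TPM + 1) axis, with filled dots for replicate 1 and open circles for replicate 2, grouped by role. Cflar, Diablo and Xiap lie farthest right, Bim and Puma (Bcl2l11 and Bbc3) lie between the lines of 1 and 10 TPM, and 7 genes sit at 0 in both libraries.

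Among the anti-apoptotic BCL2 proteins, 3 of 9 were called above 1 TPM and the founding member of the family was not among them. Mcl1, whose short-lived protein holds Bak and BH3-only proteins, had 40.5 TPM in replicate 1 and 73.5 TPM in replicate 2, a mean of 57.0 ± 23.4 (SD, n = 2). Bcl2l2, which encodes Bcl-w, had 46.4 and 56.2 TPM, a mean of 51.3 ± 6.87. Bcl2l1, the gene of Bcl-xL and a survival factor of many neurons, had 15.0 and 14.1 TPM, a mean of 14.5 ± 0.601. Both libraries thus placed Bcl2l1 below Mcl1 and Bcl2l2, while the order of Mcl1 and Bcl2l2 differed between the libraries. Bcl2 itself had 1.52 and 0.30 TPM, and Bcl2l10, known from oocytes, was listed at 0 and 0.75 TPM.

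The Bcl2a1 genes, which encode the haematopoietic survival protein A1, were at or near the floor of the table. Bcl2a1a and Bcl2a1c were listed at 0 in both libraries, Bcl2a1b at 0.88 and 0 TPM and Bcl2a1d at 3.67 and 0 TPM. Their transcripts are near-identical: that of Bcl2a1d aligned with that of Bcl2a1b over 817 bases at 99.1% identity and with that of Bcl2a1a over 819 bases at 98.8%. Reads may be split among these copies, so the values of single Bcl2a1 genes are uncertain. Microglia, the retinal cells of that lineage, had 0 of 9 marker genes called above 1 TPM. The 9 genes summed to 3.41 and 15.8 TPM. Among them, C1qa, C1qb, C1qc and Ptprc were listed at 0 in both libraries, while Cx3cr1 stood at 2.01 and 1.34 TPM.

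Of the proteins that open the mitochondrial membrane, Bax was the 1 of 3 called above 1 TPM. Bax had 26.1 TPM in replicate 1 and 53.4 TPM in replicate 2, a mean of 39.7 ± 19.3 (SD, n = 2). Bak1, its partner in function, had 4.52 and 1.39 TPM, and Bok, a further relative, was listed at 0 in both libraries. Bak1 was not called, although it stood over 1 TPM in both libraries, so that 2 of 3 did without a test. Bax exceeded Bak1 in both libraries. Bak1 shares 18.2% of its exonic bases with an opposite-strand gene, Ggnbp1, at 6.95 and 27.2 TPM, and since no source states whether counting used strand, reads of the pair may not be told apart.

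BH3-only genes, whose products sense stress, were low, with 2 of 8 above 1 TPM and none above 10 TPM. Bcl2l11, the gene of Bim, had 6.13 and 8.07 TPM, a mean of 7.10 ± 1.37 (SD, n = 2). Bbc3, the p53 target also called Puma, had 4.18 and 8.25 TPM, a mean of 6.21 ± 2.88. Bim and Puma were the only BH3-only genes with at least 1 TPM in both libraries. The others differed between the libraries without a shared direction. Bad, which growth factor kinases switch off, had 0.91 and 10.47 TPM, and Bid, the link from caspase 8 to mitochondria, had 3.52 and 0.36 TPM. Bik was listed at 0 and 3.17 TPM, Bmf at 2.57 and 0 TPM, Hrk, a neuronal death gene, at 1.58 and 0.41 TPM, and Pmaip1, the gene of Noxa, at 0 and 0.44 TPM. Of these genes 2 share exonic bases with a neighbour on the opposite strand: Bad shares 20.5% with Gpr137, at 2.57 and 5.51 TPM, and Bid shares 17.7% with Bcl2l13.

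Of the remaining BCL2-named genes, Bcl2l13 was called above 1 TPM, at 7.53 and 5.73 TPM. Its product sits on the outer mitochondrial membrane and acts in mitophagy. Bcl2l15 had 11.2 TPM in replicate 1 and 0.95 in replicate 2, Bcl2l12 had 0.95 and 5.03 TPM, and Bcl2l14 was listed at 0 in both. Bcl2l12 and Bcl2l15 thus changed places between the libraries. Bcl2l12 shares 28.9% of its exonic bases with the antisense gene Gm15545, which was listed at 0 and 5.54 TPM and was thus higher in the same library. It shares a further 4.45% with Irf3, also on the opposite strand, at 47.8 and 38.6 TPM. Bcl2l15 shares 21.0% with Gm43064 on the same strand, which was not analysed here.

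Summed over a role, anti-apoptotic BCL2 genes reached 108 TPM in replicate 1 and 145 TPM in replicate 2. Pore-forming genes reached 30.6 and 54.8 TPM, and BH3-only genes 18.9 and 31.2 TPM. The sum of the anti-apoptotic genes was 3.52 times that of the pore-forming genes in replicate 1 and 2.64 times in replicate 2. Against pore-forming and BH3-only genes together it was 2.18 and 1.69 times. The anti-apoptotic sum was thus the larger in each library, by a ratio that moved between them. These are sums of RNA levels over genes of 1 role, and say nothing of protein.

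**Figure D2:**
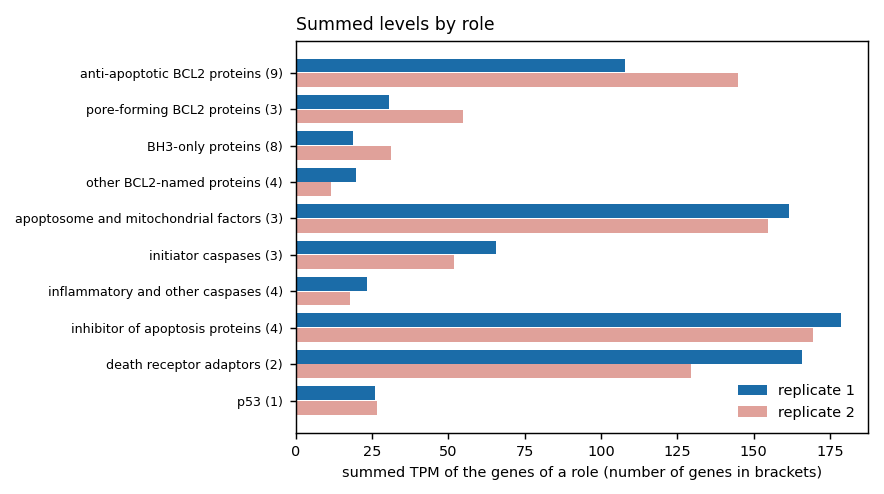
Summed TPM of the genes of each role shown in replicate 1 (dark bars) and replicate 2 (light bars), with the number of genes in brackets. Inhibitor of apoptosis genes reach 179 and 169 TPM, and BH3-only genes 18.9 and 31.2 TPM.

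All 3 mitochondrial and apoptosome factors were called above 1 TPM. Diablo, the mitochondrial protein that displaces XIAP from caspases, had 128 TPM in replicate 1 and 121 TPM in replicate 2. Its mean of 124 ± 5.49 (SD, n = 2) ranked 1250 among all symbols and second among the apoptosis genes. Apaf1, the scaffold of the apoptosome, had 21.7 and 16.1 TPM, a mean of 18.9 ± 3.995. Diablo shares 21.5% of its exonic bases with B3gnt4 on the opposite strand, which stood at 0.66 and 0.72 TPM, and 19.3% with Gm49027 on the same strand, which was not analysed here.

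Cycs, the gene of cytochrome c, was listed at only 11.8 TPM in replicate 1 and 18.1 TPM in replicate 2, and its value is uncertain because near-identical copies carried far higher ones. Gm10053, an intronless copy annotated as protein-coding, had 98.8 and 65.2 TPM. Gm10108, annotated as a processed pseudogene, had 66.0 and 186 TPM. Both copies exceeded Cycs in both libraries, and the 3 together summed to 177 TPM in replicate 1 and 269 TPM in replicate 2. The copies were named after their values were seen. Of the 318 coding bases of Cycs, Gm10053 matches every base and Gm10108 differs at 2, G4A and G44A, counted from 1 at the first base of the start codon. The first 120 coding bases are shown because reads from this stretch cannot be assigned between Cycs and Gm10053, with the differing bases of Gm10108 in capitals.
Cycs: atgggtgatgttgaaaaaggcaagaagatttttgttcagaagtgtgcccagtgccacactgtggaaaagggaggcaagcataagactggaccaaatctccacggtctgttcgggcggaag
Gm10053: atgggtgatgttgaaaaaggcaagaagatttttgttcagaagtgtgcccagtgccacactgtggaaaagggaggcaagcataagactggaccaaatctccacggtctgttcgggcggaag
Gm10108: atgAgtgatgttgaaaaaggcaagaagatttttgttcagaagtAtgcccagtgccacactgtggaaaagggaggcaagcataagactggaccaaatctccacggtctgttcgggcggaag
By the GENCODE M21 annotation of GRCm38 (mm10), Cycs lies on the minus strand at chr6:50562563-50566538, Gm10053 on the plus strand at chr19:24875686-24876631 and Gm10108 on the minus strand at chr5:13121448-13121766. The annotated transcripts are 3123 bases long for Cycs, 946 for Gm10053 and 319 for Gm10108, so an equal number of reads gives a short copy a far higher TPM. No source used here states how reads that fit several of these genes were shared out. The table therefore does not give a cytochrome c level that can be compared with that of Apaf1.

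Of the 3 initiator caspases, 2 were called above 1 TPM. Casp2, an initiator activated by the PIDDosome complex, had 43.4 TPM in replicate 1 and 23.8 TPM in replicate 2, a mean of 33.6 ± 13.9 (SD, n = 2). Casp9, the caspase of the apoptosome, had 18.3 and 21.6 TPM, a mean of 19.95 ± 2.36. Casp8, the caspase of death receptors, had 4.0 and 6.44 TPM and was not called above 1 TPM, but 4 of 5 other limma settings did call it. The order Casp2, Casp9, Casp8 was the same in both libraries, although Casp2 and Casp9 were close in replicate 2.

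Casp6, a caspase that initiators cleave, had 2.07 TPM in replicate 1 and 2.46 TPM in replicate 2. It was not called above 1 TPM, nor by any of the 5 other limma settings. Both values of Casp6 were below the lowest initiator value, 4.0 TPM for Casp8. At an unadjusted p under 0.05 limma called 20 of the 44 genes above 1 TPM in place of 19, with Casp8 as the addition.

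Casp4 stood apart among the inflammatory caspases. In the mouse its product, also called caspase 11, binds bacterial lipopolysaccharide. Casp4 had 23.3 TPM in replicate 1 and 17.9 TPM in replicate 2, a mean of 20.6 ± 3.77 (SD, n = 2). Casp1, the caspase that matures interleukin 1 beta, Casp12, and Casp14, which acts in skin, were listed at 0 in both libraries. Casp1, Casp4 and Casp12 are neighbours on the plus strand, at chr9:5298517-5307265, chr9:5308828-5336783 and chr9:5345430-5373032 (GENCODE M21, GRCm38), so a single member of this cluster gave signal. No annotated exon of another gene overlaps Casp4. Of the 9 microglia genes, 0 were called above 1 TPM, as given above. Cx3cr1 had 2.01 and 1.34 TPM, and the highest by mean, Aif1, had values of 0 and 12.9 TPM. The part of microglia in the Casp4 value was not tested.

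All 4 inhibitor of apoptosis genes were called above 1 TPM and 3 above 10 TPM. Xiap, a direct inhibitor of caspases, had 72.0 TPM in replicate 1 and 74.6 TPM in replicate 2, a mean of 73.3 ± 1.85 (SD, n = 2). Birc2, a ubiquitin ligase of tumour necrosis factor signalling also called cIAP1, had 63.0 and 53.3 TPM, a mean of 58.1 ± 6.85. Xiap exceeded Birc2 in both libraries. Birc3, the cIAP2 gene that lies beside Birc2 on chromosome 9, had 3.86 and 18.5 TPM. Birc3 was below Birc2 in both libraries, and its libraries differed by 2.00 on the log2(TPM + 1) scale, replicate 2 minus replicate 1.

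Birc5 had 39.9 and 23.2 TPM, a mean of 31.5 ± 11.8 (SD, n = 2). Its product survivin is best known as a chromosomal passenger in dividing cells. Genes of cycling cells did not accompany it at that level: 1 of 6 was called above 1 TPM, and the 6 summed to 13.5 TPM in replicate 1 and 15.4 TPM in replicate 2. Top2a accounted for 12.8 and 6.51 TPM, and Mki67 had 0.22 and 0.09 TPM. Aurkb, which works in the same complex as survivin, had 0.24 and 2.11 TPM. Ccnb1 had 0.19 and 5.34 TPM, Bub1 was listed at 0 and 1.38 TPM, and Cdk1 at 0 in both. Birc5 exceeded the sum of these 6 genes in both libraries, and the part of dividing cells in its level was not tested. No annotated exon of another gene overlaps Birc5, and no transcript of another gene matched it at 95% identity over 200 bases.

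Of the genes that act at death receptors, Cflar was the most abundant of all 44. Its product, c-FLIP, competes with caspase 8 at the receptor complex. Cflar had 165 TPM in replicate 1 and 127 TPM in replicate 2, a mean of 146 ± 26.4 (SD, n = 2), and ranked 1013 among all symbols. Fadd, the adaptor that brings caspase 8 to the receptors, had 1.11 and 2.10 TPM and was not called above 1 TPM. Cflar and Casp8 lie close together on the plus strand of chromosome 1, at chr1:58711508-58758884 and chr1:58795374-58847503, and Cflar exceeded Casp8 in both libraries. A stretch of 598 bases of the Cflar transcript is identical in Gm9845, which had 5.13 and 7.61 TPM.

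Trp53, the gene of p53, was among the most even between the libraries, with 25.9 TPM in replicate 1 and 26.5 TPM in replicate 2, a mean of 26.2 ± 0.396 (SD, n = 2).

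The libraries differed by over 2-fold, that is by more than 1 on the log2(TPM + 1) scale, for 10 of the 37 apoptosis genes above 0 in either library. This is 27.0% of them, against 31.2% of all 19968 genes, so at this setting these genes were not more uneven than the table as a whole. Replicate 2 was higher for 5 of the 10 (Bad, Bik, Birc3, Bcl2l12 and Bax) and lower for 5 (Bcl2l15, Bcl2a1d, Bmf, Bid and Bak1), against 2450 higher and 3788 lower among all genes. The median difference, replicate 2 minus replicate 1, was 0.03 for the apoptosis genes and -0.20 for all genes tested. RNA of the mitochondrial genome took 17.3% of TPM in replicate 1 and 24.6% in replicate 2, and with it left out 12 of the apoptosis genes differed by over 2-fold in place of 10. For that setting the share of all genes was not computed. Among genes with a mean of 1 to 10 TPM, 8 of 15 members differed by over 2-fold, against 52.4% of all genes of that level. Among genes with a mean of 10 to 100 TPM, 2 of 14 members differed by over 2-fold, Bax and Birc3, against 27.9% of all genes of that level. The libraries belong to 1 group, so no test was made between them.

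**Figure D3:**
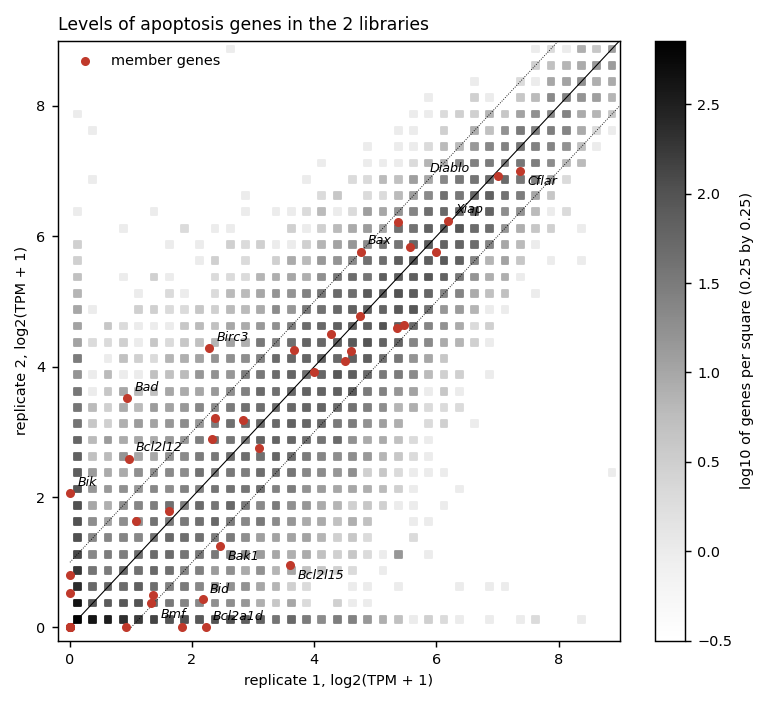
Level in replicate 1 (horizontal) against replicate 2 (vertical), both as log2(TPM + 1), with 42 apoptosis genes as dots over the density of all genes in grey, up to 9 on each axis. Dotted lines mark a difference of 1, and the 10 genes outside them are named, together with Cflar, Diablo and Xiap, which lie near the diagonal.

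Other genes of the pathway were taken from 6 lists. Of the 54 list genes above 0 in either library, 40 were called above 1 TPM, which is 74.1%, against 55.5% of all genes tested. The lists hold many widely expressed genes, and the share was not tested.

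Of 12 death receptors, ligands and their adaptors, 3 were called above 1 TPM. The count was 5 without a test and under 3 of the other limma settings (a pseudocount of 0.1, no variance trend and robust variances). Ngfr, the p75 neurotrophin receptor, had 171 TPM in replicate 1 and 128 TPM in replicate 2, a mean of 150 ± 30.3 (SD, n = 2). Tnfrsf10b, the mouse receptor for the death ligand TRAIL, had 19.6 and 15.0 TPM, and Ripk1, a kinase of these complexes, had 3.73 and 9.74 TPM. Tnfrsf21, death receptor 6, had 5.14 and 4.78 TPM and was not called. Fas, Fasl, Tnfrsf1a and Tnf were listed at 0 in both libraries. The abundant Cflar was thus accompanied by low Fadd and Casp8 and by Ngfr and Tnfrsf10b as the receptors called above the line.

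Of 10 p53 regulators and targets, 6 were called above 1 TPM. Mdm2, which ubiquitinates p53 and is also its target, had 102 and 83.7 TPM, and its relative Mdm4 had 44.2 and 51.2 TPM. The targets Ccng1 and Sesn1 had 72.5 and 39.7 TPM and 47.6 and 41.2 TPM. The lowest were Sesn2, at 0.89 and 5.84 TPM, and Phlda3, at 1.87 and 0 TPM. Both p53 inhibitors exceeded Trp53 in both libraries.

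All 12 further mitochondrial and nuclease factors were called above 1 TPM. Vdac1, the voltage-dependent anion channel of the outer membrane, had 500 and 543 TPM, and Vdac2, which holds Bak, had 177 and 184 TPM. Birc6, a giant ubiquitin ligase of the inhibitor of apoptosis family, had 303 and 235 TPM and so exceeded Xiap in both libraries. Bnip3, a mitophagy receptor with a BH3-like stretch, had 170 and 154 TPM. The lowest were Htra2, a protease released with Diablo, at 12.1 and 15.0 TPM, and Dffb, the caspase-activated DNase, at 9.01 and 6.48 TPM.

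Among 9 partners that bind BCL2 proteins, 7 were called above 1 TPM. Ywhaz and Ywhae, the 14-3-3 proteins that hold phosphorylated Bad, had 1022 and 1038 TPM and 833 and 910 TPM. Tmbim6, also called Bax inhibitor 1, had 138 and 119 TPM, and Bag1, a chaperone partner first found through Bcl-2, had 57.6 and 132 TPM. Moap1, which binds Bax, was listed at 0 in both libraries, but it shares 87.7% of its exonic bases with Gm20604 on the same strand, at 15.1 and 8.56 TPM, so the reads of the pair may be split. Bag3 was listed at 0 and 1.48 TPM.

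Of 8 genes of the inflammatory and necrotic forms of cell death, 2 were called above 1 TPM and 4 were listed at 0 in both libraries. Il18, a cytokine precursor that caspase 1 matures, had 114 and 107 TPM, a mean of 111 ± 4.79 (SD, n = 2). Dfna5, the gasdermin E gene whose product a caspase cleaves, had 34.05 and 24.5 TPM. The 4 at 0 were Ripk3, Gsdmd, Nlrp3 and Il1b, and Casp1 was at 0 as well. Mlkl, the pore of necroptosis, had 5.29 and 2.05 TPM and Pycard, an inflammasome adaptor, 0.96 and 3.76 TPM.

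Survival and stress kinases were common, with 10 of 12 genes called above 1 TPM. Pdpk1, which activates Akt, had 92.9 and 79.9 TPM, and Map2k7 and Mapk10, of the JNK route, had 86.3 and 74.5 TPM and 104 and 50.4 TPM. The lowest were Jun, the JNK target, at 0.56 and 22.6 TPM, and Foxo1, a transcription factor that Akt restrains, at 4.90 and 1.42 TPM. Jun is also an immediate early gene, and the 8 immediate early and heat shock genes checked as a dissociation response summed to 355 TPM in replicate 1 and 88.1 TPM in replicate 2, with 3 of 8 called above 1 TPM. They went both ways: Egr1, at 304 and 66.3 TPM, Fos, at 31.4 and 3.33 TPM, Ier2 and Atf3 were lower in replicate 2. Junb, at 2.30 and 4.44 TPM, Fosb, Hspa1a and Hspa1b were higher there, as Jun was, and the last 3 were listed at 0 in replicate 1. The part of tissue dissociation in these values was not tested.

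**Figure D4:**
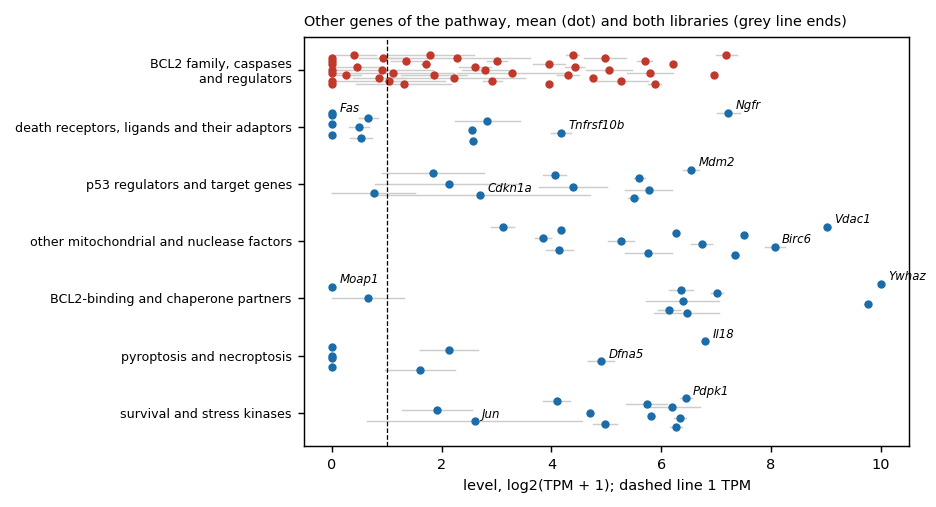
Levels of 42 apoptosis genes (top row) and of 6 further pathway lists, with a dot for the mean log2(TPM + 1) and the ends of a grey line for the 2 libraries. All 12 mitochondrial and nuclease factors lie right of the dashed line of 1 TPM, while 4 death receptor or ligand genes and 4 pyroptosis or necroptosis genes sit at 0.

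The promoter sequences give a feature that the choice of genes did not use. RefSeq promoter windows on GRCm38.p6, from 250 bases before to 50 after the annotated start, were matched by symbol for 39 of the 44 genes. Bcl2l10, Bik and Pmaip1 were among those without a window. The ratio of observed to expected CpG was averaged over the windows of a gene. Its median was 0.816 for the 19 members called above 1 TPM and 0.412 for the 20 other members with a window. Over all genes with a window the medians were 0.772 for the 7563 called above 1 TPM and 0.304 for the 9765 others. A ratio of at least 0.6 was found for 13 of the 19 (68.4%) and 7 of the 20 (35.0%). Over all genes with a window the shares were 74.2% of those called and 25.9% of the others. The apoptosis genes thus followed the pattern of all genes, and no test was made.

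Exceptions lay on both sides. Xiap, at 0.393, Bcl2l2, at 0.337, Casp4, at 0.381, Trp53, at 0.494, Birc3, at 0.516, and Bcl2l1, at 0.580, were called above 1 TPM with ratios under 0.6. Bcl2, at 1.02, Hrk, at 0.956, Bcl2l12, Fadd, Bid, Bad and Bok had ratios of at least 0.6 and were not called. The windows of Diablo, the most abundant gene with a ratio over 1, and of the neighbours Casp4 and Casp1, both CpG-poor though only Casp4 gave signal, are shown with each CpG in capitals. Casp4 has 2 windows, of which 1 is shown.
Diablo: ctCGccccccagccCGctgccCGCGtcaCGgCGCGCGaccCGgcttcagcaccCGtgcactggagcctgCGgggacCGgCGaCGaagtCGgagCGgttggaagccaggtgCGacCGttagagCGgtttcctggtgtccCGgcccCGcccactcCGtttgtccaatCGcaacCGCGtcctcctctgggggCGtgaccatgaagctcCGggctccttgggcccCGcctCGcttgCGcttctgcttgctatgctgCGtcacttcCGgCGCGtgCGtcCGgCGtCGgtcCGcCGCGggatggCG
Casp4: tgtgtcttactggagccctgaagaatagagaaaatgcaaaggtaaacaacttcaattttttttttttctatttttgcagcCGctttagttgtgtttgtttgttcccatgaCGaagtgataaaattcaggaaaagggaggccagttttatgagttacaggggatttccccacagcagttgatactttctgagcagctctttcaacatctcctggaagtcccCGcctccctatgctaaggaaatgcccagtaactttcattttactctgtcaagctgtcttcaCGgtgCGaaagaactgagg
Casp1: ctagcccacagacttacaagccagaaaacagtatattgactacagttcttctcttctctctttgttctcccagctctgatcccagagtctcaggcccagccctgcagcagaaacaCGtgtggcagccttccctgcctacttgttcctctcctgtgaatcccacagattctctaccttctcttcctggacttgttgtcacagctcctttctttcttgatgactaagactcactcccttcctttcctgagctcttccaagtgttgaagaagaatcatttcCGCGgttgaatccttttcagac
The windows lie at chr5:123524115-123524414 on the minus strand for Diablo, with 42 CpG, at chr9:5308599-5308898 on the plus strand for Casp4, with 5, and at chr9:5298267-5298566 on the plus strand for Casp1, with 3. The letters GGATTA, a core that OTX and CRX homeodomain proteins bind, were searched on both strands and found in the window of 1 of the 39 members, Bax (2.56%), against 7.71% of all 17328 genes with a window. The letters TATAAA, searched likewise and sharing no full match with GGATTA, were found for 4 of 39 (Bcl2l12, Cflar, Trp53 and Xiap), which is 10.3%, against 14.2% of all genes. A match is a description of the letters in the window and not a binding site.

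**Figure D5:**
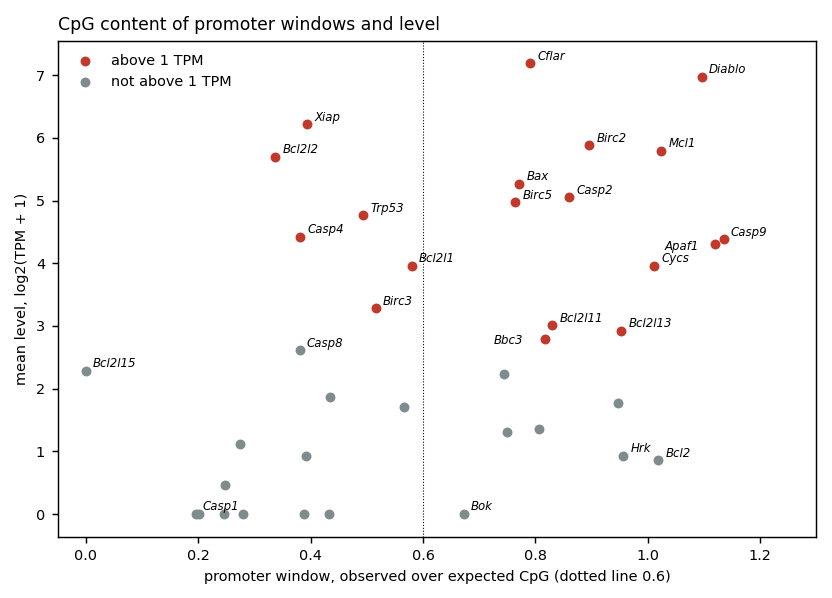
Ratio of observed to expected CpG in the promoter windows (horizontal) against the mean level as log2(TPM + 1) (vertical) for 39 apoptosis genes, coloured by whether the gene was called above 1 TPM. Of the called genes, 13 of 19 lie right of the dotted line at 0.6, and Xiap, Bcl2l2, Casp4, Trp53, Birc3 and Bcl2l1 lie left of it.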

How the data were processed

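RNA was measured in 2 libraries of sorted cells. Per the labels' protocols, the kit was NuGEN's Ovation RNA-seq V2. The authors deposited 1 table of TPM. Per the submitters' processing notes, mm10, RSEM 1.2.28 and TopHat2 2.0.10 were used, with no step assigned. Annotation, filters and strand setting: not given in the sources used here. One column, that of replicate 1, spells its gene with letters exchanged and was matched by replicate number. TPM keeps no depth, so depth is unknown and no counting interval could be given.

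Values were used as deposited, as log2(TPM + 1) with a pseudocount of 1. Genes above 0 in either library were tested against 1 and 10 TPM in limma 3.58.1 (R 4.3.3) by a one-sided test on the mean of the libraries, with variances shrunk to a trend on abundance and p-values adjusted by Benjamini-Hochberg over all of these genes. limma estimated an infinite prior, so each gene took the variance of the trend at its abundance and its own disagreement between libraries did not enter. Single adjusted p-values are therefore not printed. The procedure was run on simulated data, in which many genes set a few TPM over the line of 1 TPM were not called. Exon overlaps came from GENCODE M21, and near-identical copies from BLAST 2.17.0 of each member's longest coding transcript against all transcripts, at 95% identity over 200 bases or more.

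The rule for named genes takes every member, and of each further list up to 4 genes with the highest and 2 with the lowest mean TPM, with ties. Some genes the rule selects are not reported here. Some of the overlapping genes and near-identical copies found are named beside a member. The members and lists were chosen with earlier results of these data known. Alternatives were other pseudocounts, filters, variance models and scalings, no test, and leaving out a library.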

Additional observations from a re-analysis of the deposited data

How the results depend on the processing

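The counts of apoptosis genes above 1 TPM (19) and above 10 TPM (10) kept within 19 to 20 and 10 to 13 under the 5 other limma settings. Leaving out each replicate in turn, which leaves 1 library and no test, gave 27 to 31 of the 44 genes at or over 1 TPM. Of all 32813 symbols, 14882 to 15514 stood there. At or over 10 TPM it gave 16 to 17 of the 44 genes, beside 9294 to 9935 of all symbols. Without a test, 24 and 15 were at or over the line in both libraries. Casp8 was called above 1 TPM under 4 of these settings. Leaving out RNA of the mitochondrial genome raised the median gene by 0.32 (log2), and with it Apaf1, Casp9 and Casp4 were called above 10 TPM. The 40 pathway list genes above 1 TPM became 41 to 48 over all alternatives. The 10 genes that differed over 2-fold between libraries became 16 with a pseudocount of 0.1, which gives more weight to values near 0, and 10 to 12 under the other settings. The share of all genes was computed for the main setting only. Whether the apoptosis genes stay no more uneven than all genes under the others is therefore not known. No paired analysis was possible because the series has a single group. Depth is unknown, so how far it limits genes near 1 TPM cannot be given.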
